A study of Homo sapiens with 8 samples.

Results

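The transcripts of 10 genes whose introns hold small nucleolar RNAs (snoRNAs) were followed across 8 RNA-seq libraries of Huh7 cells, a line established from a human hepatocellular carcinoma. The 10 hosts were GAS5, ZFAS1, SNHG1, SNHG5, SNHG6, SNHG8, SNHG12, SNHG15, SNHG16 and TAF1D. They were chosen by gene symbol, as a set of hosts held to be sensitive to nonsense-mediated mRNA decay (NMD), and all 10 were among the 17076 genes in the expression tables. The study asked how the NMD factor UPF1 alters the transcriptome of these cells when it is lost or in excess. Each of the 4 groups had 2 libraries: siControl cells received a scrambled siRNA, siUPF1 cells an siRNA against UPF1, MYC cells a control vector, and MYC-UPF1 cells a vector that overexpresses MYC-UPF1. MYC stands here for the myc epitope tag of the study's constructs, not for the MYC gene. All groups were transfected Huh7 cells, and the sources used here do not say whether libraries of a group came from separate cultures, so p-values measure only the spread between these libraries. The values were FPKM (fragments scaled to transcript length and to the number of mapped fragments).

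NMD is a surveillance pathway that degrades an mRNA when translation ends well upstream of its last exon junction, and UPF1 is the RNA helicase at its centre. A snoRNA host is transcribed and spliced, its introns are trimmed to snoRNAs that guide the modification of ribosomal and spliceosomal RNA, and the spliced exons are left as a second product. In most of these hosts the exons hold only short open reading frames, so a ribosome that translates them stops early, and NMD is a known route of their decay in mammalian cells.

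The annotation (GENCODE, GRCh37, the assembly also called hg19) was read for this feature. The lowest-numbered spliced transcript of each of the 9 noncoding hosts was used, and the first ATG was followed to its stop. These frames had between 12 codons in SNHG5 and 50 codons in SNHG15, and all 9 stops lay more than 50 bases before the last exon junction, the distance usually given for NMD. The shortest distance to the junction was 67 bases, in SNHG15, and the longest 1259 bases, in SNHG16. The frames of 5 hosts are shown because they are what a translating ribosome would meet first. The start codon and the stop codon are in capitals, and each is read 5′ to 3′ on the transcript's strand.
SNHG5, chr6:86386800-86388450, minus strand: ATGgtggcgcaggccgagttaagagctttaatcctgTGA
SNHG12, chr1:28905051-28908135, minus strand: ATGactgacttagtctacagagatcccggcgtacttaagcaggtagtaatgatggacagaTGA
ZFAS1, chr20:47895179-47905797, plus strand: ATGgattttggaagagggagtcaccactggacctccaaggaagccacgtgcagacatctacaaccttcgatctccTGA
SNHG16, chr17:74553860-74561430, plus strand: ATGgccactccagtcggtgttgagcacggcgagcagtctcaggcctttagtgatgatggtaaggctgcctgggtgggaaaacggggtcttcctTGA
SNHG15, chr7:45022684-45026169, minus strand: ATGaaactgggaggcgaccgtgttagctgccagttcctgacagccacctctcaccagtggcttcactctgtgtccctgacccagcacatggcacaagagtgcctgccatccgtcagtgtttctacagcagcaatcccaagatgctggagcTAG

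Over all of their annotated spliced transcripts, 268 of 285 (94%) from the 9 hosts had a first frame that ended more than 50 bases before the last junction. The shares ran from 76.9% in ZFAS1 (10 of 13) to 100% in GAS5 (62 of 62) and SNHG12 (9 of 9). Among other noncoding genes tested in these libraries the share was 85.5% (5688 of 6649), so the layout is common in noncoding transcripts at large. TAF1D differs from the others in that it codes for a protein, a subunit of the factor that brings RNA polymerase I to ribosomal DNA. Its coding frame of 278 codons in the lowest-numbered transcript ended 144 bases past the last junction, and 7 of its annotated transcripts are classed as NMD substrates beside 3 classed as protein coding.

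The start sites were read as well, because hosts of this kind are known for a pyrimidine tract at the first base that links their translation to growth. The letters CTTT were searched on the transcript's strand within 20 bases of each start in the RefSeq promoter set (GRCh38.p14). Of the 10 hosts, 8 were read in this way. The letters were found in 6 of these 8 (75%), against 16% of all 35116 promoters. The count was 13 of 16 (81.2%) for hosts that encode ribosomal proteins and 6 of 21 (28.6%) for other protein-coding hosts. For other noncoding hosts it was 2 of 13 (15.4%). The windows of 4 hosts are shown with the matched letters in capitals, on coordinates of GRCh38.p14. In ZFAS1 and SNHG5 the letters begin exactly at the annotated start. GAS5 and SNHG1 had no match in this window. The search covered only these exact letters at the RefSeq start used for each host, not other pyrimidine tracts or other starts.
ZFAS1, chr20:49278622-49278661, plus strand: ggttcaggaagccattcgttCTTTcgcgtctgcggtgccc
SNHG5, chr6:85678714-85678753, minus strand: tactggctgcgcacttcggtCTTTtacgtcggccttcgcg
SNHG12, chr1:28581854-28581893, minus strand: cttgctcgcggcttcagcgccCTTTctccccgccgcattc
TAF1D, chr11:93741476-93741515, minus strand: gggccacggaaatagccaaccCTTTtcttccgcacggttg

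UPF1 itself followed the labels. It was at 44.5 and 47.4 FPKM in siControl and at 20.7 and 21.9 FPKM in siUPF1, a log2 fold change of -1.07 (adjusted p = 0.0308, limma). In MYC cells it was at 45.1 and 57.4 FPKM and in MYC-UPF1 cells at 2835 and 2484 FPKM (log2 fold change 5.68, adjusted p = 8.91e-09, limma). All 8 hepatocyte markers were present, with ALB from 6550 to 8372 FPKM and AFP from 11093 to 12505 FPKM, and of the 3 markers of other cells found in the tables the endothelial PECAM1 did not exceed 0.796 FPKM and the fibroblast COL3A1 0.468 FPKM, while the macrophage marker CD68 was at 2.95 to 3.84 FPKM. The depth of the libraries is unknown, since FPKM holds no read number and low values showed no steps of whole reads. MYC replicate 1 correlated more closely with MYC-UPF1 replicate 2 (0.997, log2 FPKM + 1 across genes) than with MYC replicate 2 (0.994). MYC replicate 2 was likewise closer to MYC-UPF1 replicate 1 (0.996). In the depletion set, siUPF1 replicate 1 was closer to siControl replicates 1 and 2 (0.9924 and 0.9934) than to siUPF1 replicate 2 (0.9916).

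The hosts were abundant in every library. Their mean FPKM over the 8 libraries ran from 31.04 for TAF1D to 148 for GAS5, which placed them between the 88.6th and the 97.9th percentile of all genes. GAS5, SNHG1 and SNHG5 led in that order in all 4 groups, SNHG16 and SNHG6 followed, and TAF1D was last. GAS5 stood above SNHG1, SNHG5 above SNHG16, and SNHG8 above TAF1D in all 8 libraries, with no overlap in any group. SNHG1 was above SNHG5 in 7 of the 8. The means of SNHG15, SNHG12, ZFAS1 and SNHG8 lay between 38.9 and 43.5 FPKM. SNHG15, SNHG12 and ZFAS1 changed their order between groups, and SNHG15 was above SNHG12 in only 4 of the 8 libraries. SNHG8 had a lower mean than SNHG15 and SNHG12 in all 4 groups, and ZFAS1 was above it in 7 of the 8 libraries. FPKM is scaled to length, which makes levels comparable between genes as far as the transcript models are right.

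**Figure D1:**
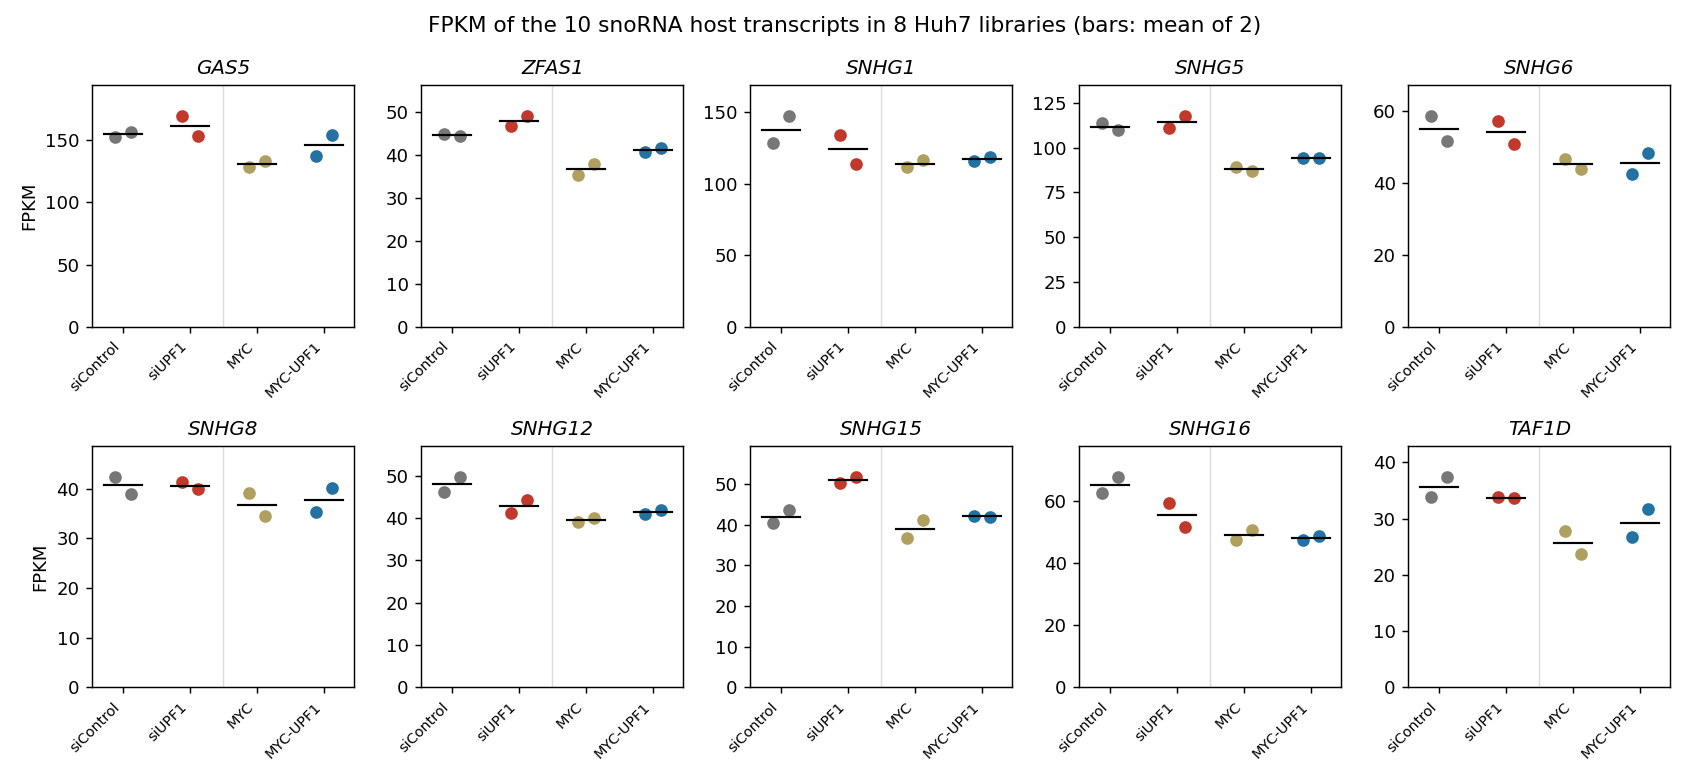
FPKM of each snoRNA host (vertical axis, from 0) in the siControl, siUPF1, MYC and MYC-UPF1 libraries; points are single libraries and bars the mean of 2. Both siUPF1 points of SNHG15 lie above both siControl points, those of SNHG12 and SNHG16 lie below, and all 10 hosts have a lower mean in MYC than in siControl.

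After UPF1 depletion, the snoRNA hosts did not rise as a group. SNHG15 alone passed an unadjusted limma p of 0.05, with a higher level in siUPF1, and none passed an adjusted p of 0.05. Of all 13535 genes tested, 21.5% passed the unadjusted threshold, 16% with a higher and 5.51% with a lower level, so 1 of 10 hosts is no more than the table at large. Only 5 genes, or 0.0369%, passed the adjusted threshold. Without siUPF1 replicate 1, a fit with 1 depleted library in which the control pair alone gives the spread, 3 hosts passed the adjusted threshold (SNHG1, SNHG15 and SNHG16), but so did 33.5% of all genes. With quantile normalization 1417 genes were higher and 1408 lower, in place of 2162 and 746, and SNHG12 and SNHG16 then also passed the unadjusted threshold, with lower levels. The median log2 fold change of the hosts was -0.01, against 0.06 for all genes, and 5 of the 10 hosts were above 0, against 60.9% of all genes. The order of these medians turned without siControl replicate 1 (0.05 for the hosts and 0.04 for all genes) and under the correction for GC content and length described further on (0.04 and -0.0021). No shared rise that would bear out the name of the set was seen in these libraries, and the genes are called snoRNA hosts here. UPF1 itself was still at 0.475-fold on the FPKM + 1 scale, and the intervals of single hosts reached up to 0.49. A modest shared rise can therefore not be excluded. With 2 libraries in each group, the smallest two-sided p of an exact permutation test for a single host is 0.333, and each p given here depends on the variance that limma borrows from all genes.

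SNHG15, a short-lived noncoding RNA that carries SNORA9, was at 40.4 and 43.5 FPKM in siControl and at 50.2 and 51.7 FPKM in siUPF1. Both depleted libraries were above both controls, by 1.21-fold on the FPKM + 1 scale. The log2 fold change was 0.27 (standard error 0.0923, 95% interval 0.06 to 0.49, unadjusted p = 0.0208, adjusted p = 0.170, limma). It was 0.22 without siControl replicate 1 and 0.33 without siControl replicate 2, and did not pass the unadjusted threshold in either case (unadjusted limma p-values of 0.239 and 0.0858). In the fit with siUPF1 replicate 2 as the only depleted library it was at 0.30 (adjusted p = 0.0259, limma), where 33.5% of all genes passed the adjusted threshold.

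GAS5, named for its accumulation in growth-arrested cells and the host of SNORD44, SNORD47 and SNORD74 to SNORD81, was at 153 and 157 FPKM in siControl. In siUPF1 it was at 169 and 153 FPKM, so that the first depleted library was above both controls and the second was level with them. The log2 fold change was 0.06 (95% interval -0.17 to 0.28, limma). ZFAS1, the host of the SNORD12 family that starts beside the ZNFX1 gene, was at 44.8 and 44.4 FPKM in siControl and at 46.7 and 48.9 FPKM in siUPF1. The groups did not overlap, but the log2 fold change of 0.10 had an interval from -0.11 to 0.31. ZFAS1 and SNHG15 were the only hosts with both siUPF1 libraries above both controls, 2 of 10, where 37.5% of all genes tested had this order.

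SNHG5, the host of SNORD50A and SNORD50B, was at 114 and 109.7 FPKM in siControl and at 111 and 117 FPKM in siUPF1. SNHG6, the host of SNORD87, was at 58.4 and 51.6 FPKM and then at 57.1 and 50.8 FPKM, and SNHG8, the host of SNORA24, was at 42.3 and 39.0 FPKM and then at 41.3 and 39.96 FPKM. The groups overlapped in all 3 hosts, and the fitted log2 fold changes were 0.03, -0.03 and 0.00. The 95% intervals reached no further than 0.25 upwards for SNHG5, 0.23 for SNHG6 and 0.22 for SNHG8.

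SNHG16, the host of SNORD1A, SNORD1B and SNORD1C, was at 62.5 and 67.5 FPKM in siControl and at 59.3 and 51.5 FPKM in siUPF1. SNHG12, which carries SNORD99, SNORA16A and SNORA44, was at 46.3 and 49.7 FPKM and then at 41.1 and 44.4 FPKM. In both genes the depleted libraries lay below the controls, although neither passed the unadjusted threshold (SNHG16, log2 fold change -0.23, unadjusted p = 0.0682, limma; SNHG12, -0.16, unadjusted p = 0.135, limma). SNHG12 passed it without siUPF1 replicate 2, at -0.22 (unadjusted p = 0.0460, limma). SNHG1, the host of SNORD22 and SNORD25 to SNORD31, was at 129 and 147 FPKM in siControl and at 134 and 114 FPKM in siUPF1, which overlapped. TAF1D was at 33.8 and 37.4 FPKM in siControl and at 33.8 and 33.7 FPKM in siUPF1, with both depleted libraries level with the lower control. By the values alone, 3 of the 10 hosts had both siUPF1 libraries below both controls, against 18.5% of all genes. TAF1D is among these 3 only by 33.785 FPKM in siUPF1 replicate 1 against 33.793 FPKM in siControl replicate 1. In the fit without siUPF1 replicate 1, whose spread comes from the control pair alone, SNHG16 had a log2 fold change of -0.33 and SNHG1 one of -0.27 (limma adjusted p-values of 0.0122 and 0.0394), among the 33.5% of all genes that passed the adjusted threshold there.

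**Figure D2:**
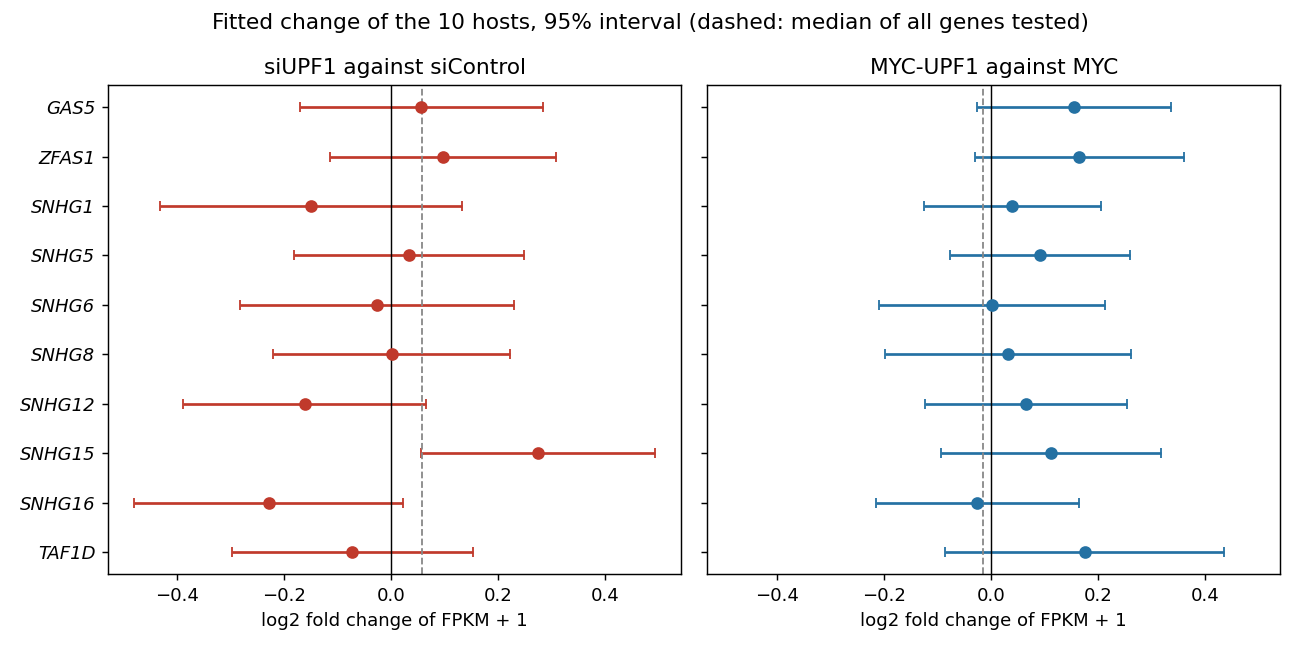
Log2 fold change of FPKM + 1 (horizontal axis) of each snoRNA host for siUPF1 against siControl and for MYC-UPF1 against MYC; points are limma estimates, bars 95% intervals and the dashed line the median of all genes tested. The interval of SNHG15 after depletion, from 0.06 to 0.49, is the only one that leaves out 0.

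After UPF1 overexpression, 0 of the 10 hosts passed an unadjusted limma p of 0.05, where 1.43% of 13251 genes did, and UPF1 was the only gene to pass the adjusted threshold (0.00755%). With the correction for GC content and length described further on, the count was 3 (GAS5, ZFAS1 and SNHG15), where 3.34% of all genes passed. The fitted values were nevertheless mostly above 0. The median log2 fold change of the hosts was 0.08 against -0.01 for all genes, and 9 of 10 hosts were above 0 against 43.1% of all genes. In 5 hosts both MYC-UPF1 libraries were above both MYC libraries, an order found in 8.88% of all genes, and in 0 hosts were both below, an order found in 11.8%. The hosts share their libraries, so these counts are not 10 separate measurements.

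The 5 hosts whose groups did not overlap were GAS5, ZFAS1, SNHG5, SNHG12 and SNHG15. GAS5 was at 129 and 133 FPKM in MYC and at 138 and 154 FPKM in MYC-UPF1 (log2 fold change 0.16, standard error 0.0810, unadjusted p = 0.0856, limma). ZFAS1 was at 35.4 and 37.8 FPKM and then at 40.7 and 41.6 FPKM (0.17, standard error 0.0868, unadjusted p = 0.0870, limma). The 2 genes thus came closest to the threshold, and each had a 95% interval that began just under 0. With MYC-UPF1 replicate 1 left out GAS5 moved to 0.24, and with MYC-UPF1 replicate 2 left out to 0.07. SNHG5 was at 89.5 and 87.0 FPKM in MYC and at 94.1 FPKM in both MYC-UPF1 libraries, and SNHG12 was at 39.2 and 39.96 FPKM and then at 41.0 and 42.0 FPKM. SNHG15 was at 36.7 and 41.1 FPKM in MYC and at 42.1 and 42.0 FPKM in MYC-UPF1, so that the gene higher after depletion was also not lower with UPF1 in excess. Its log2 fold change was 0.11 (95% interval -0.09 to 0.32, limma), and 0.03 without MYC replicate 1.

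TAF1D had the largest fitted value of the 10 hosts, 0.18, and also a wide spread, at 27.7 and 23.7 FPKM in MYC and 26.7 and 31.7 FPKM in MYC-UPF1. Without MYC replicate 1 it was at 0.29 and passed the unadjusted threshold (unadjusted p = 0.0363, limma), but leaving out MYC replicate 2 gave 0.07 and leaving out MYC-UPF1 replicate 2 gave 0.06. SNHG1 was at 112 and 116 FPKM in MYC and at 116 and 119 FPKM in MYC-UPF1, and SNHG16 at 47.3 and 50.5 FPKM and then 47.3 and 48.7 FPKM. SNHG6 was at 46.6 and 43.9 FPKM and then 42.4 and 48.4 FPKM, and SNHG8 at 39.1 and 34.5 FPKM and then 35.2 and 40.1 FPKM. These groups overlapped, and the fitted log2 fold changes of the 4 genes lay between -0.03 for SNHG16 and 0.04 for SNHG1.

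The difference between the effects of depletion and overexpression was tested in a single model over the 8 libraries. It passed the unadjusted threshold for 0 of the 10 hosts, against 15.2% of 13412 genes, and the adjusted threshold for 0 hosts against 0.0224% of genes. With quantile normalization 1024 genes had a difference above 0 and 907 one below, in place of 1585 and 456, and 2 hosts passed, SNHG12 and SNHG16. The median difference was -0.08 for the hosts and 0.07 for all genes. SNHG12 had the lowest unadjusted p, with a log2 fold change of -0.16 on depletion and 0.07 on overexpression (difference -0.23, standard error 0.119, unadjusted p = 0.0833, limma). SNHG15 was the only host with a difference above 0, at 0.16 (95% interval -0.12 to 0.44).

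The widest separation among the host levels was between the pair of control groups, a comparison chosen after the values were seen. The 10 hosts together summed to 724 and 747 FPKM in siControl and 744 and 706 FPKM in siUPF1, but to 602 and 608 FPKM in MYC and 623 and 662 FPKM in MYC-UPF1. All 10 had a lower mean in MYC than in siControl, with a median log2 fold change of -0.27 against -0.06 for all genes. Of the hosts, 8 passed the unadjusted threshold with a lower level, where 25.6% of 13359 genes did, and the same 8 passed the adjusted threshold, as did 29.1% of genes in either direction. With quantile normalization 2763 genes were higher and 2709 lower, in place of 2052 and 3416. The exceptions were SNHG8 and SNHG15. TAF1D had the largest difference, from 35.6 ± 2.52 FPKM (SD, n = 2) in siControl to 25.7 ± 2.87 FPKM (SD, n = 2) in MYC, a log2 fold change of -0.46 (adjusted p = 0.00353, limma). SNHG16 followed at -0.40 (adjusted p = 0.00377, limma). Without siControl replicate 1 the median of the hosts was -0.29, against -0.07 for all genes. Without siControl replicate 2 it was -0.25, against -0.04. In these fits, which rest on 1 siControl library, fewer hosts passed either threshold. The control vector and the siRNA cannot be told apart in this comparison, nor from any difference in how the pairs were prepared, which the labels do not give.

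Fold changes in these libraries varied with transcript GC content, and the hosts were read against that relation. Across genes, which are not independent replicates, the Spearman correlation of log2 fold change and GC content was 0.553 for depletion (12794 genes), -0.439 for overexpression (12552 genes) and 0.580 for MYC against siControl (12646 genes). The hosts had GC contents from 38.6% in TAF1D to 56.2% in SNHG15, with a median of all genes of 48.3%. SNHG15, the only host called after depletion, was thus also the host with the highest GC content: genes of 55 to 60% GC had a median log2 fold change of 0.16, and SNHG15 was at 0.27. After each library was corrected for GC content and length (loess on both, chosen with earlier results known), SNHG15 was at 0.18 (unadjusted p = 0.0418, limma) and SNHG16 at -0.24 (unadjusted p = 0.0124, limma), where 22.7% of all genes passed the unadjusted threshold. Between the control groups, the median of the hosts moved from -0.27 to -0.03 under that correction, and only SNHG5 at -0.16 and SNHG16 at -0.29 then passed the unadjusted threshold (unadjusted limma p-values of 0.00974 and 0.000709), 2 of 10 hosts against 39.1% of all genes.

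**Figure D3:**
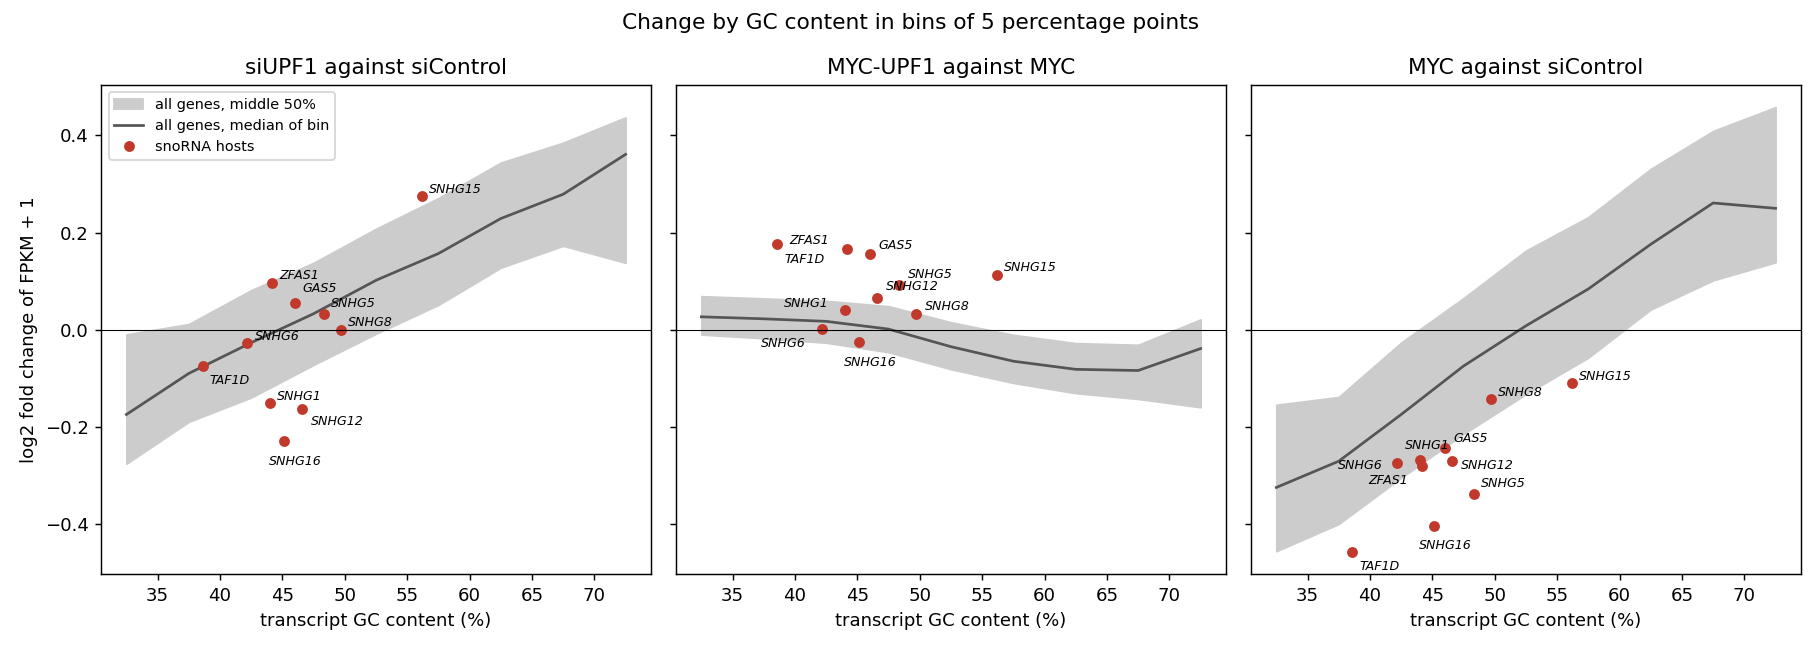
Log2 fold change of FPKM + 1 (vertical axis) against transcript GC content (horizontal axis, percent) for 3 comparisons; the line is the median of all genes in bins of 5 percentage points, the band their middle 50% and red points the snoRNA hosts. After depletion SNHG15 lies at the right end of the hosts, at 56.2% GC and 0.27, where the genes of its bin have a median of 0.16.

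The snoRNAs of these hosts have their own entries in the tables. All 41 snoRNAs listed for the 10 hosts lie inside their host in RefSeq and are between 60 and 139 bases long. In GENCODE 6 of them could be placed on the transcripts used above, all 6 in an intron, but SNORD12 and SNORD78 also lie within an exon of another transcript of their host. The libraries were made from poly(A) RNA, which mature snoRNAs lack, and which molecules gave these entries their reads was not tested. Of the 41 entries, 39 passed the minimum of 0.5 FPKM.

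After UPF1 depletion 11 of the 39 snoRNA entries fell at an unadjusted p of 0.05 and 0 rose, where 5.51% of all genes fell, and their median log2 fold change was -0.20. None passed the adjusted threshold. Of the 11 entries, 4 lie in GAS5 and 3 in TAF1D. Many entries lie in the same gene and all share the same libraries, so they are not 39 separate measurements. Of the 196 snoRNA and scaRNA entries from other hosts, 18 fell and 19 rose, with a median of -0.01. In 27 of 39 cases the snoRNA entry had a lower log2 fold change than its host. GAS5 gave the most of these: 9 of its 10 snoRNA entries were below it, with a median of -0.36 against 0.06 for GAS5. All 3 entries of ZFAS1 were below it as well (median -0.32 against 0.10). The medians lay above the host for SNHG1 (2 of 7 entries below), SNHG12 (1 of 3) and SNHG16 (1 of 3). The summed FPKM of the GAS5 entries was 336 and 377 in siControl and 303 and 256 in siUPF1, while the libraries of GAS5 itself overlapped. With quantile normalization 14 entries fell, where 1408 of all genes did in place of 746. The count of entries that fell also moved with the library left out, as did the count of all genes that fell. Those fits rest on 1 library in a group. Only 29 of the 41 entries had a GC value, so the GC check is void for the list.

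The 5 snoRNA entries with the largest differences after depletion were SNORD12, SNORD75, SNORD74, SNORA1 and SNORA8. SNORD74, a guide of ribosomal RNA methylation in a GAS5 intron, was at 7.17 and 8.50 FPKM in siControl and at 5.92 and 4.50 FPKM in siUPF1 (log2 fold change -0.51, unadjusted p = 0.00758, limma). SNORD75, also from GAS5, was at 2.48 and 2.78 FPKM and then at 1.23 and 1.77 FPKM (-0.55, unadjusted p = 0.00384, limma). SNORD12 from ZFAS1 was at 7.22 and 5.31 FPKM and then at 4.60 and 3.18 FPKM (-0.58, unadjusted p = 0.0140, limma), and its exon overlap with a ZFAS1 transcript applies to these values. In each of these the depleted libraries were below the controls, and the values are low. SNORA8, a guide of pseudouridylation in a TAF1D intron, was at 8.77 and 9.65 FPKM in siControl and 6.13 and 6.61 FPKM in siUPF1 (-0.47, unadjusted p = 0.00199, limma). It was at 6.35 and 5.37 FPKM in MYC and 7.63 and 7.62 FPKM in MYC-UPF1 (0.33, unadjusted p = 0.0230, limma). It was thus lower with less UPF1 and higher with more only against each group's own control. Between the controls SNORA8 differed by more, at -0.58 for MYC against siControl (adjusted p = 0.00135, limma). Both MYC-UPF1 values lay below both siControl values, so the 4 groups were not ordered by UPF1. The call of SNORA8 after overexpression was lost without MYC replicate 2 (0.23) and without either MYC-UPF1 library, where the value stayed at 0.33 and 0.34. The value for SNORA1, at -0.48, rests on siControl replicate 1 with 3.75 FPKM, and without that library it was at -0.18. SNORD12 was at -0.38 without the same library and then missed the threshold (unadjusted p = 0.0505, limma). These 5 entries have a GC value of their own, and under the GC and length correction SNORD12 (-0.59), SNORD75 (-0.52), SNORD74 (-0.49) and SNORA8 (-0.45) still passed, while SNORA1 did not (-0.42, unadjusted p = 0.0543, limma).

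**Figure D4:**
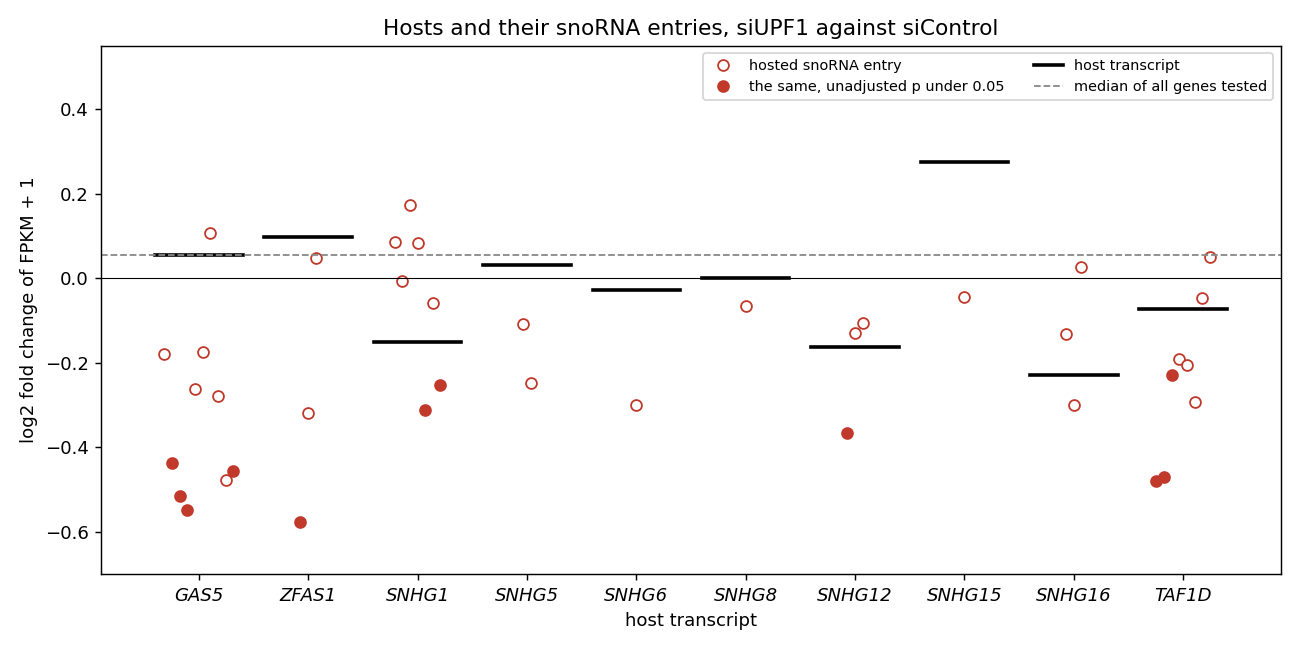
Log2 fold change of FPKM + 1 after UPF1 depletion (vertical axis) of each host (black bar) and of the snoRNA entries inside it (circles, filled where the unadjusted limma p is under 0.05); the dashed line is the median of all genes tested. The snoRNA entries of GAS5 lie mostly below their host, with a median of -0.36 against 0.06.

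After overexpression 3 of the 39 snoRNA entries passed the unadjusted threshold, as did 1.43% of all genes and 24 of the 176 snoRNA and scaRNA entries from other hosts. SNORA8 was higher, and SNORD77 from GAS5 (-0.37) and SNORD12C from ZFAS1 (-0.33) were lower. The values of SNORD12C are low, at 1.21 and 1.31 FPKM in MYC and 0.541 and 1.08 FPKM in MYC-UPF1. SNORD12C was at -0.12 without MYC-UPF1 replicate 1, and its call was also lost without either MYC library (-0.37 and -0.30). Under the GC and length correction the call was lost as well (-0.32, unadjusted p = 0.05115, limma). The median of the entries was 0.06, and of the GAS5 entries 0.10.

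Other snoRNA hosts were read in the same way. Of 12 other noncoding hosts, 5 passed the unadjusted threshold after depletion, where 21.5% of all genes did. They had no shared direction, and the median of the 12 was -0.02 against 0.06 for all genes. SNHG7 was at 62.1 and 66.4 FPKM in siControl and at 86.7 and 93.2 FPKM in siUPF1 (log2 fold change 0.48, unadjusted p = 0.00152, limma), and SNHG11 also rose (0.34). SNHG9 was at 10.6 and 11.2 FPKM in siControl and at 7.86 and 6.90 FPKM in siUPF1 (-0.51, unadjusted p = 0.00148, limma), and SNHG4 (-0.29) and SNHG3 (-0.26) fell as well. SNHG7 and SNHG9 kept their calls without any single library, while SNHG11 lost its call without siControl replicate 1 (0.26) and under the GC and length correction (0.19). SNHG4 (-0.31 and -0.26) and SNHG3 (-0.29 and -0.22) lost theirs without either siControl library, and SNHG3 also without siUPF1 replicate 2 (-0.18). SNHG7 was the noncoding host with the highest value, above SNHG15, and it was at 0.19 under the GC and length correction. Of 19 hosts that encode ribosomal proteins, 3 fell (RPL23, RPL5 and RPSA) and 0 rose, with a median of -0.12. Of all genes, 5.51% fell and 16% rose. Both siUPF1 libraries lay below both controls in 14 of these 19 and above both in 1, against 18.5% and 37.5% of all genes. Of 20 other protein-coding hosts, 1 fell (TCP1, a subunit of the chaperonin that folds actin and tubulin, at -0.24) and 0 rose, with a median of -0.10. Both siUPF1 libraries lay below both controls in 10 of these 20 and above both in 0. The calls of these 4 coding genes were lost without either siControl library, with values from -0.34 for RPL23 to -0.20 for TCP1. Without siUPF1 replicate 2 the calls of RPL23 (-0.14), RPL5 (-0.15) and TCP1 (-0.19) were lost as well. After overexpression 0 hosts of these 3 lists passed the unadjusted threshold, where 1.43% of all genes did. The medians of the lists were 0.00, -0.03 and 0.00, against -0.01 for all genes. At none of these genes was an adjusted p of 0.05 passed in either comparison.

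Among the 10 hosts, the pairwise correlation over the 8 libraries ranged from 0.251 to 0.933 with a median of 0.699, for log2(FPKM + 1). All pairs share the same libraries, in which the hosts were lower in the vector groups than in the siRNA groups. Of 7658 genes outside the lists with a mean FPKM of at least 5, those most like the mean profile of the hosts were RND3 (Pearson's r 0.996 over 8 libraries), CBWD3 (0.992), DCAF6 (0.988), IQCB1 (0.988) and ANAPC13 (0.988).

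Some host exons are shared with other genes in the annotation. GAS5 overlaps GAS5-AS1, SNHG6 overlaps MCMDC2 and SNHG12 overlaps TRNAU1AP, each on the opposite strand. SNHG5 shares exon sequence with the protein-coding gene ENSG00000271793 on the same strand, and SNHG16 with ENSG00000284526 on the opposite strand, and the levels of these genes are not analysed here. Strand cannot separate the reads of SNHG5 from those of its neighbour. The library kit keeps strand, but whether strand was used in quantification is not given in the sources used here. GAS5-AS1, MCMDC2 and TRNAU1AP had mean levels of 0.234, 0.298 and 4.68 FPKM, below those of the hosts in each case.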

How the data were processed

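Poly(A) RNA of Huh7 cells was sequenced from both ends after TruSeq Stranded mRNA preparation. Per the labels, the authors trimmed reads with Trimmomatic 0.38, aligned them with HISAT2 2.1.0 (build hg19) and quantified with StringTie 1.3.4d; the labels also list mm10. The deposited values are FPKM per gene and library, without read counts. The series tables and single-library files held the same values (0 differences). Each group of 2 libraries was compared in limma 3.58.1 (R 4.3.3; lmFit, eBayes with trend) on log2(FPKM + 1), which understates changes of low genes, restricted to genes whose mean over the libraries compared reached 0.5 FPKM, with Benjamini-Hochberg adjustment over all of them. Genes beyond the 10 hosts were named as UPF1, as at most 5 per list and comparison with the largest change at an unadjusted p of 0.05, or as the 5 most alike in pattern. The hosts and lists were chosen with earlier results of these data known. GC content and length came from GENCODE on GRCh37 (15674 genes). Of the list of ribosomal hosts, 1 gene is not reported here. The fit was tested on simulated data. Python 3.11.15 with pandas 2.3.3 was used.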

Additional observations from a re-analysis of the deposited data

Results flagged for a closer look

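Screened here were only the 10 hosts and the listed features named above for an unadjusted p of 0.05 in either comparison. They are thus not a full list, and they were picked on the values tested again here. The test was that of the difference of the log2 fold changes (depletion minus overexpression, limma). The following features passed an unadjusted p of 0.05, and none passed an adjusted p of 0.05. The difference was -0.734 for SNHG9 and 0.522 for SNHG7, with -0.301 for SNHG3. It was -0.317 for RPL5, a host that encodes a ribosomal protein. Among the snoRNA entries it was -0.625 for SNORD74 and -0.804 for SNORA8, which had adjusted p-values of 0.232 and 0.115 (limma). None of the 10 hosts was among them, and 15.2% of all genes tested passed the same threshold. Over the whole lists it was passed by 7 of 39 snoRNA entries, all with a difference below 0. It was also passed by 3 of 12 other noncoding hosts, 2 of 19 ribosomal hosts and 0 of 20 other protein-coding hosts.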

How the results depend on the processing

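The alternatives were a pseudocount of 0.1, no FPKM minimum or one of 5, quantile normalization, centring on the median, a joint fit of all 8 libraries, no mean-variance trend, a correction for GC content and length, the replicate number as a block, and each library left out. The hosts called at an unadjusted p after depletion numbered 1, where 21.5% of all genes were called. They numbered 3 with quantile normalization or median centring, and median centring called 1602 genes higher and 1271 lower. The joint fit gave 2 hosts (2218 genes higher and 821 lower), as did GC and length correction (22.7% of all genes). At an adjusted p the hosts called numbered 0 in each of these settings. For overexpression the count was 0 (1.43% of all genes), or 1 with quantile normalization and 3 under GC and length correction (3.34%). For the difference between the effects it was 0 (15.2%), or 2 with quantile normalization and 1 with median centring or GC and length correction. With a library left out the counts at an unadjusted p moved as well, and those fits rest on 1 library in a group. The calls over all genes also moved between settings, as given in the next paragraph, so these counts are not read as results about the hosts. The replicate block gave 1 host for depletion, 0 for overexpression and 0 for the difference, and under GC and length correction 1, 2 and 0. In that corrected block fit for depletion SNHG16 was the host called, and SNHG15 lost its call (0.18, unadjusted p = 0.0589, limma). Same-number deviations correlated at -0.129 for depletion and -0.569 for overexpression, so the numbers did not pair the libraries. Crossing them, chosen after the data were seen, gave 1 host for depletion and 3 for overexpression, where 9.26% of all genes passed. The causes were not tested.

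Genes higher and lower after depletion numbered 2162 and 746, but 1417 and 1408 with quantile normalization, and with a library left out 941 to 3675 and 365 to 2221; the adjusted count of 5 ranged from 0 to 4539. After overexpression they numbered 82 and 107, and ranged from 22 to 348 and from 27 to 879. For the difference they numbered 1585 and 456, and 1024 and 907 with quantile normalization. Between the control groups they numbered 2052 and 3416, and 2763 and 2709 with quantile normalization.

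Values that changed sign were smaller than their standard error, except between the control groups. For depletion, SNHG8 was at -0.034 with quantile normalization, -0.039 with median centring and -0.011 under GC and length correction, with or without the block, and from -0.057 to 0.058 with a library left out. SNHG5 was at -0.0064 with median centring and from -0.0068 to 0.072 with a library left out, and GAS5 from -0.015 to 0.13. Under GC and length correction, with or without the block, SNHG6 was at 0.050 and TAF1D at 0.044, and SNHG6 ranged from -0.11 to 0.060 with a library left out. For overexpression, SNHG16 was at 0.018 with quantile normalization and from -0.072 to 0.021 with a library left out, SNHG6 at -0.025 under GC and length correction (both fits) and from -0.089 to 0.094, and SNHG8 from -0.058 to 0.12. For the difference, ZFAS1 was at 0.0093 and SNHG6 at 0.077 under GC and length correction (both fits), and with a library left out SNHG6 ranged from -0.12 to 0.062 and SNHG8 from -0.12 to 0.058. Between the control groups, SNHG6 was at 0.0075 and SNHG8 at 0.029 under GC and length correction. Of the settings tried for a host, 122 of 150 for depletion and 132 of 150 for overexpression kept both direction and side of the unadjusted threshold. Depth is unknown, and 2 libraries per group limit each value.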
